A study of Mus musculus with 28 samples.

Results

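The 10 genes described here are the inhibitors of cyclin-dependent kinases (CDKs) and the D-type cyclins, chosen by symbol from a table of 54429 genes. They are the Cip/Kip inhibitors Cdkn1a (p21), Cdkn1b (p27) and Cdkn1c (p57), the INK4 inhibitors Cdkn2a, Cdkn2b, Cdkn2c and Cdkn2d, and the cyclins Ccnd1, Ccnd2 and Ccnd3. Of the 10, 9 had at least 1 read count and 8 had enough counts to be tested. Their transcripts were counted by RNA sequencing in O9-1, a mouse cell line from the cranial neural crest, the embryonic cells that form much of the face and palate. The study asked how differentiation of these cells proceeds under low oxygen, and all groups share the same unmodified line.

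The 28 libraries fall into 8 groups, 4 culture types each kept at 21% O2 (4 libraries per group) or at 0.5% O2 (3 libraries per group). Proliferating cultures were fed STO-conditioned DMEM with 15% fetal calf serum (FCS), 25 ng/ml bFGF and 5 ng/ml LIF. Osteoblast cultures had 10 days in alpha-MEM with 10% FCS, 10 mM beta-glycerophosphate, 0.1 µM dexamethasone and 100 ng/ml BMP-2. Chondrocyte cultures had 3 days in that osteoblast medium and then 7 days as micromasses on matrigel, in alpha-MEM with 5% FCS, insulin-transferrin-selenium, 0.1 µM dexamethasone, 10 ng/ml TGF-beta3 and 50 ng/ml BMP-2. Smooth muscle cultures had 3 days in DMEM with 10% FCS, without added growth factors per the labels. The culture types therefore differ in serum, time and mitogens as well as in lineage, and these cannot be told apart. The labels do not say whether replicates came from separate cultures, so the p-values measure only the spread between these libraries.

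D cyclins are made in response to growth factors and activate CDK4 and CDK6, which phosphorylate the retinoblastoma protein and so release E2F factors that switch on S-phase genes. INK4 proteins bind CDK4 and CDK6 directly and keep them from the D cyclins, while Cip/Kip proteins bind cyclin-CDK complexes, above all those of CDK2. Cdkn1a is a classical p53 target, Cdkn1c is an imprinted gene needed for palate, cartilage and bone development, and p27, the product of Cdkn1b, is controlled largely by protein degradation, which RNA counts do not show.

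Library totals lay between 19.87 and 64.69 M counts, where M is 1000000. Levels are given as counts per 1000000 (CPM) after TMM scaling, which corrects for libraries in which a few genes take many of the reads. The 3 smooth muscle libraries at 0.5% O2 stood apart from the rest. Their TMM factors were 0.505 to 0.533 against 0.901 to 1.289 in the other 25 libraries, and 2 mitochondrial ribosomal RNA genes took 11.6% to 13.3% of their counts against at most 0.0889% elsewhere. The summed level of 6 smooth muscle markers was 95.0 to 119 CPM in them, against 3579 to 4043 CPM in smooth muscle cultures at 21% O2 and 191 to 195 CPM in proliferating cultures at 0.5% O2. The same markers summed to 3647 to 5175 CPM in osteoblast and 2077 to 2534 CPM in chondrocyte cultures at 21% O2, so they do not single out the smooth muscle label. The hypoxic smooth muscle libraries lacked the marker levels of their label, and "smooth muscle at 0.5% O2" below names a medium and an oxygen level only. The summed level of 3 leukocyte markers was 33.0 to 36.5 CPM in them and at most 5.41 CPM elsewhere. Of these 3 markers Cd68 alone accounted for 32.7 to 36.5 CPM, while Adgre1 was at 0 and Ptprc at 0 to 0.278 CPM. Scaling by library size alone instead of TMM moved the median log2 change of all genes in the comparisons of these 3 libraries from between -0.12 and -0.042 to between -1.49 and -1.35. Their member changes are therefore read against the median gene, and each that turns under the other scaling is marked. In the other comparisons the same step moved that median from between -0.032 and 0.066 to -0.351 for chondrocyte against proliferating cultures at both oxygen levels, to -0.083 and -0.228 for osteoblast against proliferating cultures at 21% and 0.5% O2, to -0.188 between oxygen levels in osteoblast cultures and to -0.121 for the osteoblast interaction, and by less than 0.1 in the rest. The 8 hypoxia response genes fixed as markers summed to 2535 to 4572 CPM in the hypoxic groups and to 238 to 1252 CPM at 21% O2. Chondrocyte cultures were highest at 21% O2 (711 to 1252 CPM) and lowest at 0.5% O2 (2535 to 3011 CPM). Osteoblast cultures had 521 to 656 CPM at 21% O2. Proliferating cultures had 274.5 to 306 CPM at 21% O2 and 3607 to 3846 CPM at 0.5% O2. The part of this narrower span in the oxygen changes and interaction terms of chondrocyte cultures was not tested. Chondrocyte markers summed to 7135 to 14340 CPM in chondrocyte cultures at 21% O2 against 106 to 150 CPM in proliferating ones. In chondrocyte cultures at 0.5% O2 they summed to 5440 to 5725 CPM, and 2 of these cartilage collagen genes were far lower there, Col2a1 with a mean of 274 CPM against 3511 CPM at 21% O2 and Col9a1 with 0.143 CPM against 35.6 CPM. Most of the sum at 0.5% O2 thus came from the other markers of the list. Osteoblast markers summed to 6710 to 10510 CPM in osteoblast cultures at 21% O2, below the 38540 to 46950 CPM of the chondrocyte cultures. At 0.5% O2 they summed to 13670 to 15600 CPM in osteoblast cultures, where smooth muscle markers summed to 2212 to 2493 CPM, and neither range overlapped that at 21% O2. The part of these marker differences in the changes between oxygen levels in osteoblast cultures was not tested. Osteoblast library 4 at 21% O2 stood apart from the other 3, with 775.4 CPM of Col2a1 against 35.6 to 43.6 CPM, 193.6 CPM of Sox9 against 51.1 to 54.7 CPM and 9278 CPM of Col1a1 against 5656 to 5669 CPM. Without it every call of a member between osteoblast and proliferating cultures at 21% O2, between oxygen levels in osteoblast cultures and in the osteoblast interaction kept its direction and its side of the threshold. In bulk RNA, fewer cells with a transcript and less transcript per cell cannot be told apart.

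Promoter sequence is shown for Cdkn1a and Cdkn1b, since both rose at 0.5% O2 in the proliferating and the chondrocyte cultures, as detailed below. RefSeq start sites were given for 7 of the 10 genes, in 11 entries of build GRCm38.p6. For Cdkn1c, Ccnd1 and Ccnd2 no entry was given in the promoter set used. The 250 bases before each start were searched on both strands for the hypoxia response core (ACGTG or GCGTG), for E2F (TTCCCGC or TTGGCGC), AP-1 (TGANTCA) and forkhead (GTAAACA) motifs, and, by name and after the Cdkn1a sequence had been seen, for p53 half-sites of 10 bases. Capitals mark p53 half-sites in the first sequence and the hypoxia response core in the other two. All are 5′ to 3′ on the plus strand.
Cdkn1a upstream start, chr17:29090729-29090978: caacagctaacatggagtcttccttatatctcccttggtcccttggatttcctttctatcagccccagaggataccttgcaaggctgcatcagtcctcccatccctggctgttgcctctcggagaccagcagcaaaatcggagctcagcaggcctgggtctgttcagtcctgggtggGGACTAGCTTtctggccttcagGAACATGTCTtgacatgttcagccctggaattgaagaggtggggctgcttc
Cdkn1a downstream start, chr17:29093519-29093768: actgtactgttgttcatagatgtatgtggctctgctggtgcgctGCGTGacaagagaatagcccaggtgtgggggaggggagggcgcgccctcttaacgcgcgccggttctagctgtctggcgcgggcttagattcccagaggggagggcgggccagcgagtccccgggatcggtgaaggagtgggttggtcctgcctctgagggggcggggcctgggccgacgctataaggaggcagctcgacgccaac
Cdkn1b, chr6:134920151-134920400: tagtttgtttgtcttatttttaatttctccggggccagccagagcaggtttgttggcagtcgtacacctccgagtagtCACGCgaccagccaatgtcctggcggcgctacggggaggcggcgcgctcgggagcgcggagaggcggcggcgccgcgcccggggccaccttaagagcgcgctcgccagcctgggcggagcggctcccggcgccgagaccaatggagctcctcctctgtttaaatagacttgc
The upstream Cdkn1a window held 2 p53 half-sites, whose first bases lie at -73 and -51 from the start site, and no hypoxia response core. The downstream window, which lies in an intron of the longer transcripts, held 1 core at -206, and the Cdkn1b window held 1 at -172. Other genes' windows held cores too: the Cdkn2c windows held 2 and 1, 1 of the Cdkn2a windows held 4 and the window of the silent Cdkn2b held 1, while 1 of the Ccnd3 windows and that of Cdkn2d held 1 each, and Cdkn2d also had 1 p53 half-site. A hypoxia response core was present in 38.6% of all 32851 promoter windows of this length and a p53 half-site in 7.13%, so a single core is common. E2F motifs were found in 5.62%, AP-1 motifs in 6.75% and forkhead motifs in 3.17% of the windows, and none of these 3 was found in the windows printed. A match describes letters only, and binding was not measured.

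**Figure D1:**
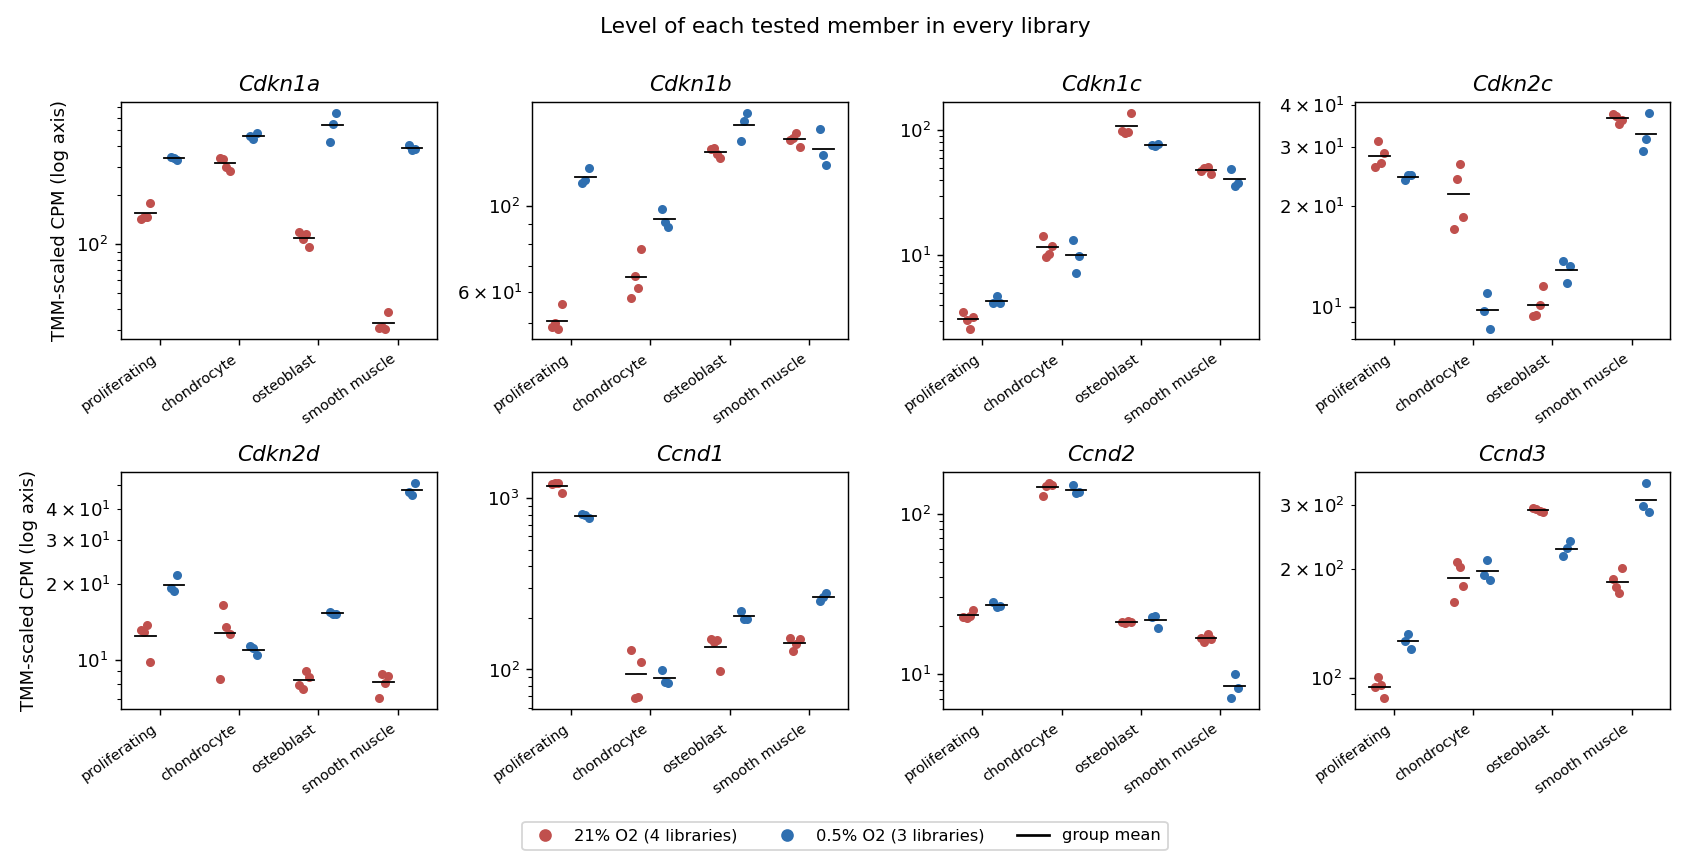
Level of the 8 tested genes in every library, as TMM-scaled CPM on log axes that differ between panels; red points are the 4 libraries per group at 21% O2, blue points the 3 at 0.5% O2, and black lines group means. Cdkn1a is lowest in smooth muscle cultures at 21% O2 (30.4 to 38.5 CPM), Cdkn1c is highest in osteoblast cultures, Ccnd1 in proliferating cultures and Ccnd2 in chondrocyte cultures.

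Cdkn1a, which encodes p21, an inhibitor that blocks CDK2 and holds cells in G1, was higher at 0.5% than at 21% O2 in all 4 culture types, by 1.47-fold in chondrocyte to 12.5-fold in smooth muscle cultures. The gene lies at chr17:29090976-29100727 on the plus strand (GRCm38) and overlaps AC167363.2 on the other strand. In proliferating cultures Cdkn1a stood at 144, 147, 148 and 180.3 CPM at 21% O2 and at 344, 338 and 329 CPM at 0.5% O2. Every hypoxic library was above every normoxic one, and the log2 change was 1.18 ± 0.0763 (SE; edgeR quasi-likelihood test with Benjamini-Hochberg adjustment over all genes tested, adjusted p = 3.8e-08). Here and below, changes given with ± and no unit are log2 fold changes with their SE. In chondrocyte cultures Cdkn1a stood at 340.5, 334, 299 and 281 CPM at 21% O2 and at 461, 443 and 482 CPM at 0.5% O2, again without overlap, with a log2 change of 0.55 ± 0.0808 (edgeR adjusted p = 0.000616). In osteoblast cultures Cdkn1a was 119, 108, 116 and 96.4 CPM at 21% O2, below the proliferating libraries, and 422, 547 and 641 CPM at 0.5% O2. That change was 2.29 ± 0.143 (edgeR adjusted p = 2.68e-06).

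Smooth muscle cultures gave the widest span for Cdkn1a, with 30.9, 30.9, 30.4 and 38.5 CPM at 21% O2 and 409, 379 and 385 CPM at 0.5% O2. The log2 change was 3.64 ± 0.0956 (edgeR adjusted p = 6.25e-14), and with scaling by library size alone it was 2.27, still a rise. Against proliferating cultures at the same oxygen level, Cdkn1a moved in different directions at 21% O2. It rose in chondrocyte cultures (1.09 ± 0.0905, edgeR adjusted p = 3.58e-07), fell in osteoblast cultures (-0.44 ± 0.096, adjusted p = 0.00187) and fell furthest in smooth muscle cultures (-2.19 ± 0.0962, adjusted p = 8.43e-11). At 0.5% O2 it was higher than in proliferating cultures in chondrocyte (0.45 ± 0.059) and osteoblast (0.67 ± 0.115) cultures. By library size alone the chondrocyte call was lost (0.12, edgeR adjusted p = 0.0911). For smooth muscle at 0.5% O2 the log2 change was 0.34 ± 0.0669 with TMM (edgeR adjusted p = 0.000856) and -0.94 by library size alone, while 1 fit of all 28 libraries gave 0.21 (adjusted p = 0.102). The sign thus turned with the scaling, while the change lay 0.41 above the median of all genes under both scalings. The call was lost in the fit of all 28 libraries. In order of mean level the groups ran from hypoxic osteoblast (537 CPM) through hypoxic chondrocyte, hypoxic smooth muscle, hypoxic proliferating, normoxic chondrocyte, normoxic proliferating and normoxic osteoblast to normoxic smooth muscle (32.7 CPM), a span of 16.4-fold. The first and second of these groups overlapped, as did hypoxic proliferating and normoxic chondrocyte cultures, and the other neighbours did not. By library size alone the hypoxic smooth muscle mean was 203 CPM, below that of normoxic chondrocyte cultures (304 CPM).

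Cdkn1b encodes p27, a brake on CDK2 that accumulates in resting cells. Its transcript was higher in all 3 differentiated cultures than in proliferating ones at 21% O2, and it rose at 0.5% O2 in proliferating cultures by 2.44-fold. The gene is at chr6:134920401-134925513 on the plus strand. In proliferating cultures Cdkn1b stood at 48.7, 50.1, 48.4 and 55.9 CPM at 21% O2 and at 115, 117 and 125 CPM at 0.5% O2, with no overlap (log2 change 1.28 ± 0.0622, edgeR adjusted p = 8.34e-10). In chondrocyte cultures Cdkn1b was 57.9, 66.2, 61.6 and 77.5 CPM and 98.5, 91.1 and 88.3 CPM at the 2 oxygen levels (log2 change 0.49 ± 0.0923, edgeR adjusted p = 0.0031). The hypoxic libraries were again the higher ones. In osteoblast cultures Cdkn1b was 140.1, 141, 136 and 133 CPM and 147, 166 and 174 CPM, a change of 0.24 ± 0.0821 (edgeR adjusted p = 0.0356). That small call was lost when any one of normoxic osteoblast libraries 1, 2 and 3 or hypoxic osteoblast libraries 2 and 3 was left out (log2 change 0.19 to 0.24, adjusted p 0.0723 to 0.106), without the filter on low counts (adjusted p = 0.0772) and by library size alone (0.079, adjusted p = 0.41). Smooth muscle cultures showed no call for Cdkn1b between 148, 149.7, 154 and 142 CPM at 21% O2 and 158, 135 and 127 CPM at 0.5% O2. The log2 change was -0.02 ± 0.0846 (edgeR adjusted p = 0.837), which scaling by library size alone put at -1.39 (adjusted p = 3.58e-09), close to the median of all genes under that scaling (-1.49).

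Against proliferating cultures at 21% O2, Cdkn1b rose by 0.45 ± 0.0908 in chondrocyte, 1.49 ± 0.0654 in osteoblast and 1.60 ± 0.0604 in smooth muscle cultures (edgeR adjusted p = 0.000704, 3.14e-08 and 1.33e-12). The chondrocyte value dropped to 0.098 with library size alone (adjusted p = 0.321). At 0.5% O2, where the proliferating level was already raised, Cdkn1b was lower in chondrocyte cultures (-0.37 ± 0.063, edgeR adjusted p = 0.000153) and higher in osteoblast cultures (0.44 ± 0.0754, adjusted p = 8.53e-05). In smooth muscle medium it was 0.36 ± 0.0961 with TMM (adjusted p = 0.00588) and -0.92 by library size alone. The highest 4 groups, all osteoblast or smooth muscle, lay between 138 and 162 CPM on average and each overlapped its neighbour in that order, but by library size alone hypoxic smooth muscle stood at 72.7 CPM, below hypoxic proliferating cultures (138 CPM).

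Cdkn1c, the imprinted gene for p57, was scarce in proliferating cultures and was higher in all 3 differentiation media at both oxygen levels, most in osteoblast cultures at 21% O2 (36.2-fold). It lies at chr7:143458339-143461050 on the minus strand, overlapping Gm44732 on the other strand. In proliferating cultures Cdkn1c was 3.52, 3.01, 2.58 and 3.19 CPM at 21% O2 and 4.13, 4.71 and 4.14 CPM at 0.5% O2. In osteoblast cultures Cdkn1c was 98.7, 95.8, 97.4 and 138 CPM at 21% O2, where library 4 was the high one, and 76.8, 74.5 and 77.0 CPM at 0.5% O2. All osteoblast libraries were above all libraries of the other culture types. The rise over proliferating cultures was 5.18 ± 0.163 at 21% O2 (edgeR adjusted p = 5.16e-09) and 4.13 ± 0.1 at 0.5% O2 (adjusted p = 1.83e-14). Smooth muscle cultures held 46.9, 49.6, 50.7 and 44.5 CPM of Cdkn1c at 21% O2 and 48.7, 35.9 and 38.2 CPM at 0.5% O2, and their ranges overlapped with TMM scaling. These were rises of 4.01 ± 0.097 and 3.37 ± 0.16 over proliferating cultures (edgeR adjusted p = 1.24e-14 and 7.28e-09). By library size alone the rise at 0.5% O2 was 2.09, with a median of all genes of -1.35. The smooth muscle means were then 61.5 CPM at 21% and 21.3 CPM at 0.5% O2. In chondrocyte cultures Cdkn1c reached only 14.2, 9.74, 10.3 and 11.9 CPM and 13.3, 7.17 and 9.79 CPM, rises of 1.98 ± 0.158 and 1.22 ± 0.206 (edgeR adjusted p = 2.15e-07 and 0.000167).

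With TMM scaling, Cdkn1c differed less between oxygen levels than between culture types. It was higher at 0.5% O2 in proliferating cultures (0.55 ± 0.167, edgeR adjusted p = 0.0106), a call that was lost without hypoxic proliferating library 2 (0.48 with an adjusted p of 0.0503). It was lower in osteoblast cultures (-0.50 ± 0.135, edgeR adjusted p = 0.0119), lost without hypoxic osteoblast library 2 (-0.48 with an adjusted p of 0.0506). Without normoxic osteoblast library 4, the highest of its group, the difference was -0.36 with an adjusted p of 0.000144. In chondrocyte cultures the log2 change was -0.20 ± 0.207 (adjusted p = 0.544). In smooth muscle cultures it was -0.16 ± 0.112 (edgeR adjusted p = 0.199), but -0.32 with an adjusted p of 0.0103 without hypoxic smooth muscle library 1, and -0.28 with an adjusted p of 0.0249 without the filter on low counts. By library size alone it was -1.53 with an adjusted p of 2.33e-08, where the median of all genes was -1.49. The neighbours in the imprinted domain were barely transcribed, with 965 counts of Kcnq1ot1, 180 of Slc22a18, 159 of Phlda2 and 22 of Kcnq1 summed over all 28 libraries, while Cdkn1c itself had 78 counts or more in each.

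The INK4 genes divided into 2 that were silent or nearly so and 2 that were expressed. Cdkn2b, which encodes p15 and lies at chr4:89306299-89311039 on the minus strand, had 0 counts in all 28 libraries. In a single library this allows a level of up to 0.0464 to 0.151 CPM, depending on its depth, and for the average over all 797 M counts up to 0.00377 CPM (3 counts, covering counting error only). These limits use library totals without TMM factors. On the TMM scale the limit is higher in libraries with a factor below 1, above all in hypoxic smooth muscle (0.505 to 0.533). Cdkn2a, at chr4:89274471-89294653 on the minus strand, encodes p16Ink4a and, in another reading frame, p19Arf, which a gene count cannot separate. It had 45 counts in all, spread over 12 libraries with at most 9 in one, and 0 in all 3 hypoxic chondrocyte libraries. Both genes were too low to be tested in any comparison. The authors' deposited tables list a log2 fold change for Cdkn2a in 3 of their 10 comparisons, between -0.14 and 0.46, with p-values of 0.419 to 0.863. Mtap, which neighbours them at chr4:89137122-89181081, was present in every library with 1828 to 33209 counts. On the other side Gm12610 and Dmrta1, named after their values were seen, had 62 and 167 counts in all. Whether the genes are present in the DNA of this line was not measured.

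Cdkn2d encodes p19Ink4d and lies at chr9:21288410-21291407 on the minus strand. It was low in every normoxic group and highest in smooth muscle medium at 0.5% O2, with a mean of 47.7 ± 2.89 CPM, or 24.7 CPM by library size alone, against 23.0 CPM in hypoxic proliferating cultures on the latter scale. At 21% O2 smooth muscle libraries held 7.01, 8.78, 8.06 and 8.63 CPM of Cdkn2d, and at 0.5% O2 46.8, 45.4 and 50.9 CPM. This was a rise of 2.62 ± 0.119 (6.13-fold, edgeR adjusted p = 3.51e-11), and 1.25 by library size alone. In proliferating cultures Cdkn2d was 13.1, 12.9, 13.8 and 9.84 CPM at 21% O2 and 19.4, 18.8 and 21.7 CPM at 0.5% O2 (log2 change 0.74 ± 0.108, edgeR adjusted p = 3.71e-05). In osteoblast cultures Cdkn2d was 7.96, 7.65, 9.02 and 8.52 CPM and 15.5, 15.2 and 15.3 CPM (log2 change 0.88 ± 0.108, edgeR adjusted p = 0.00014). In chondrocyte cultures it ranged from 8.39 to 16.5 CPM at 21% O2, which spans the 10.4 to 11.3 CPM at 0.5% O2 (log2 change -0.22 ± 0.187, adjusted p = 0.45). Hypoxic libraries were thus all above the normoxic ones in 3 culture types and not in the chondrocyte cultures. Against proliferating cultures Cdkn2d fell in osteoblast and smooth muscle cultures at 21% O2 (-0.53 ± 0.12 and -0.56 ± 0.119) and in chondrocyte and osteoblast cultures at 0.5% O2 (-0.87 ± 0.105 and -0.38 ± 0.105). The normoxic chondrocyte value was 0.11 ± 0.179 (adjusted p = 0.592), which library size alone put at -0.24. In smooth muscle medium at 0.5% O2 it was 1.38 ± 0.108 above proliferating cultures with TMM (edgeR adjusted p = 4.55e-07) and 0.10 by library size alone (adjusted p = 0.408).

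Cdkn2c, at chr4:109660876-109667189 on the minus strand, encodes p18Ink4c. Its highest groups were smooth muscle at 21% O2 (35.2 to 37.7 CPM) and at 0.5% O2 (29.1 to 37.9 CPM), and its lowest were osteoblast at 21% O2 (9.36 to 11.5 CPM) and chondrocyte at 0.5% O2 (8.61 to 11.0 CPM), a span of 3.74-fold. By library size alone the hypoxic smooth muscle mean was 17.0 CPM and that of normoxic proliferating cultures 33.0 CPM. In chondrocyte cultures Cdkn2c was 17.1, 24.1, 26.7 and 18.6 CPM at 21% O2 and 9.70, 11.0 and 8.61 CPM at 0.5% O2, a fall of 2.23-fold with no overlap (-1.15 ± 0.163, edgeR adjusted p = 0.000536). Cdkn1a and Cdkn1b rose in the same cultures, and the summed level of the chondrocyte markers, Col2a1 among them, was lower there. The part of this marker difference in the changes between oxygen levels in chondrocyte cultures was not tested. In osteoblast cultures it changed by 0.35 ± 0.124 (adjusted p = 0.037), but any one of normoxic osteoblast libraries 1, 2 and 3 or hypoxic osteoblast libraries 1 and 3 decided that call (0.31 to 0.35 and adjusted p 0.0797 to 0.101 when one of these was left out). That call was also lost without the filter on low counts (adjusted p = 0.0668) and by library size alone (adjusted p = 0.223). In proliferating cultures the log2 change was -0.16 ± 0.0743 (adjusted p = 0.0778), which became -0.23 with an adjusted p of 0.0145 by library size alone and -0.20 with an adjusted p of 0.043 without the filter. With a replicate block it was -0.15 with an adjusted p of 0.0481. In smooth muscle cultures it was -0.091 ± 0.109 (edgeR adjusted p = 0.462), and by library size alone -1.46 with an adjusted p of 9.19e-09, again near the median of all genes.

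Against proliferating cultures Cdkn2c fell in osteoblast cultures at 21% O2 (-1.43 ± 0.0985, edgeR adjusted p = 6.08e-07) and at 0.5% O2 (-0.92 ± 0.106), and in chondrocyte cultures at 0.5% O2 (-1.33 ± 0.11). The normoxic chondrocyte change was small (-0.31 ± 0.129, edgeR adjusted p = 0.0431). It lost its call without normoxic proliferating library 2, 3 or 4 or normoxic chondrocyte library 1 or 4 (-0.42 to -0.20 over all libraries left out, adjusted p up to 0.143), with DESeq2 (adjusted p = 0.0532), with RLE size factors (adjusted p = 0.0618) and with a stricter filter (adjusted p = 0.0568). Smooth muscle cultures showed a rise at 21% O2 (0.42 ± 0.0689, edgeR adjusted p = 3.89e-05), and at 0.5% O2 it was 0.55 ± 0.119 with TMM (adjusted p = 0.0015) and -0.73 by library size alone.

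Ccnd1, the cyclin most directly tied to growth factor signalling in many cells, was lower in all 3 differentiation media than in proliferating cultures at both oxygen levels. The gene lies at chr7:144929931-144939925 on the minus strand and overlaps LTO1 on the other strand. In proliferating cultures Ccnd1 was 1211, 1233, 1220 and 1073 CPM at 21% O2 and 803, 803 and 763 CPM at 0.5% O2, a fall of 1.44-fold without overlap (-0.53 ± 0.0516, edgeR adjusted p = 7.36e-07). In chondrocyte cultures Ccnd1 was 129.9, 67.9, 68.8 and 111 CPM at 21% O2, a wide spread, and 98.8, 84.8 and 83.6 CPM at 0.5% O2. In osteoblast cultures Ccnd1 was 150, 144, 148 and 97.4 CPM, with library 4 the low one, and 218, 198 and 197 CPM. All hypoxic osteoblast libraries were above the normoxic ones. Smooth muscle cultures held 152, 128, 141 and 150.2 CPM of Ccnd1 at 21% O2 and 251, 266 and 280.5 CPM at 0.5% O2. The falls against proliferating cultures at 21% O2 were 11.9-fold in chondrocyte (-3.57 ± 0.225), 8.45-fold in osteoblast (-3.08 ± 0.137) and 7.98-fold in smooth muscle cultures (-2.996 ± 0.0689), with edgeR adjusted p = 3.77e-07, 3.34e-08 and 7.28e-15. At 0.5% O2 they were 8.92-fold, 3.87-fold and 2.73-fold. By library size alone the last of these was larger (-2.73 against -1.45 on the log2 scale).

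Low oxygen moved Ccnd1 in opposite directions in different cultures. Besides the fall in proliferating cultures, it rose in osteoblast cultures (0.60 ± 0.143, edgeR adjusted p = 0.00635; without normoxic library 4 0.47 with an adjusted p of 2.15e-05), and in chondrocyte cultures the log2 change was -0.096 ± 0.262 (adjusted p = 0.841). For smooth muscle cultures it was 0.96 ± 0.0812 with TMM (edgeR adjusted p = 4.67e-08) and -0.41 by library size alone, in both cases 1.08 above the median of all genes. Its levels in normoxic smooth muscle, normoxic osteoblast and both chondrocyte groups overlapped with their neighbours in the order.

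Ccnd2, another partner of CDK4 and CDK6, was several times higher in chondrocyte cultures than in all others. It lies at chr6:127125162-127152193 on the minus strand and overlaps Gm43126 and 9330179D12Rik on the other strand. In chondrocyte cultures Ccnd2 was 128, 149, 156 and 149.8 CPM at 21% O2 and 151, 134 and 137 CPM at 0.5% O2. Every library of the other 6 groups was between 7.05 and 28.1 CPM. The rise over proliferating cultures was 6.6-fold at 21% O2 (2.72 ± 0.0732, edgeR adjusted p = 2.15e-11) and 5.18-fold at 0.5% O2 (2.37 ± 0.0687, adjusted p = 5.44e-12). Oxygen made no called difference within chondrocyte (-0.057 ± 0.0761, adjusted p = 0.652) or osteoblast cultures (0.039 ± 0.0939, adjusted p = 0.748). In proliferating cultures Ccnd2 went from 22.8, 22.4, 22.9 and 24.9 CPM to 28.1, 26.3 and 26.6 CPM (0.27 ± 0.0725, edgeR adjusted p = 0.0044). Smooth muscle cultures had 16.7, 15.8, 17.7 and 16.6 CPM of Ccnd2 at 21% O2 and 7.05, 9.97 and 8.15 CPM at 0.5% O2, the lowest group, a fall of 1.91-fold (-0.94 ± 0.157, edgeR adjusted p = 7.06e-05). Against proliferating cultures the smooth muscle changes were -0.43 ± 0.0771 at 21% O2 and -1.57 ± 0.153 at 0.5% O2 (edgeR adjusted p = 0.000106 and 2.92e-06). By library size alone hypoxic smooth muscle differed by -2.31 from that at 21% O2 and by -2.85 from hypoxic proliferating cultures. The medians of all genes were then -1.49 and -1.35. The osteoblast changes were -0.089 ± 0.0671 at 21% O2 (adjusted p = 0.244, and -0.24 with an adjusted p of 0.0105 by library size alone) and -0.32 ± 0.102 at 0.5% O2 (adjusted p = 0.0108). The hypoxic one was lost without hypoxic proliferating library 1 (-0.29 with an adjusted p of 0.0536).

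Ccnd3, the D cyclin often linked to differentiating cells, rose in all 3 differentiated cultures at 21% O2. It lies at chr17:47505051-47599691 on the plus strand and overlaps Bysl on the other strand. In proliferating cultures Ccnd3 was 94.5, 101, 95.2 and 87.7 CPM at 21% O2 and 126, 132 and 120.2 CPM at 0.5% O2 (0.47 ± 0.0527, edgeR adjusted p = 2.6e-06). In osteoblast cultures Ccnd3 was 294, 292, 289 and 286 CPM at 21% O2, the tightest of its groups, and 216, 227 and 238 CPM at 0.5% O2 (-0.36 ± 0.0759, edgeR adjusted p = 0.00356). Low oxygen thus went with a rise in proliferating and a fall in osteoblast cultures. Chondrocyte cultures ranged over 162 to 209 CPM and 186 to 212 CPM and overlapped (0.059 ± 0.088, adjusted p = 0.69). Smooth muscle cultures went from 188, 177, 171 and 201 CPM to 298, 345 and 286 CPM (0.81 ± 0.0859 with TMM, edgeR adjusted p = 5.54e-07, and -0.56 by library size alone). Against proliferating cultures Ccnd3 rose at 21% O2 by 1.06 ± 0.0759 in chondrocyte, 1.67 ± 0.0544 in osteoblast and 1.01 ± 0.0597 in smooth muscle cultures (edgeR adjusted p = 8.21e-08, 5.73e-09 and 2.5e-10). At 0.5% O2 it rose by 0.63 ± 0.0677 and 0.84 ± 0.0695 in the first and second of these. In smooth muscle medium at 0.5% O2 it was 1.42 ± 0.0882 with TMM (adjusted p = 6.74e-08) and 0.14 by library size alone (adjusted p = 0.15).

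Which member of each family predominated was read within each library, from counts per kilobase of exon, so that no scaling between libraries enters. Among the D cyclins Ccnd1 made up 95.0% ± 0.176 (SD, n = 4) of the summed level in proliferating cultures at 21% O2 and 90.7% ± 0.134 (n = 3) at 0.5% O2. In chondrocyte cultures at 21% O2 the 3 D cyclins were of similar size, with 34.8% ± 9.68 Ccnd1, 27.3% ± 3.46 Ccnd2 and 37.9% ± 6.37 Ccnd3, and at 0.5% O2 they were 33.6% ± 1.87, 26.6% ± 1.18 and 39.9% ± 2.88. In osteoblast cultures Ccnd3 held 52.0% ± 4.51 at 21% O2 and 36.2% ± 2.39 at 0.5% O2, where Ccnd1 held 60.6% ± 2.25. The osteoblast ranges of the Ccnd1 share, 37.3% to 47.2% and 58.9% to 63.2%, did not overlap. Smooth muscle cultures had 57.1% ± 1.45 Ccnd1 at 21% O2 and 61.0% ± 2.87 at 0.5% O2. A share depends on the exon length used, here the union of exons in GENCODE M21, and not on any scaling. Without division by length the Ccnd1 share was lower in every group (90.9% in normoxic proliferating, 22.1% in normoxic chondrocyte, 30.1% in normoxic and 45.1% in hypoxic osteoblast cultures), and the order changed in 5 groups. Ccnd3 then exceeded it in hypoxic osteoblast cultures (50.1%) and in smooth muscle cultures at both oxygen levels (53.5% against 41.6% Ccnd1 at 21% O2, with 45.6% Ccnd1 at 0.5% O2), so the lead of Ccnd1 in these 3 groups rests on the division by length. In chondrocyte cultures Ccnd2 then exceeded Ccnd1 (34.0% at 21% O2 and 33.0% against 20.9% at 0.5% O2).

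The Cip/Kip family was led by Cdkn1a in proliferating cultures (77.4% ± 0.952 at 21% O2) and chondrocyte cultures (81.3% ± 2.56), by Cdkn1c in osteoblast cultures (46.0% ± 5.64) and by Cdkn1b in smooth muscle cultures (49.9% ± 0.803) at 21% O2. At 0.5% O2 Cdkn1a led in all 4 culture types, with 77.0% ± 1.15 in proliferating, 83.7% ± 1.40 in chondrocyte, 67.1% ± 3.75 in osteoblast and 68.5% ± 1.94 in smooth muscle cultures. In osteoblast cultures the Cdkn1c share was 16.9% ± 2.70 at 0.5% O2, and in smooth muscle cultures it went from 36.0% ± 1.31 to 12.4% ± 1.19. The smooth muscle shift in Cdkn1a share, from 14.1% ± 1.95 at 21% O2, does not rest on the scaling of the 3 libraries that stood apart. Without division by length Cdkn1b was the larger part in normoxic osteoblast cultures (38.8%, against 30.2% of Cdkn1c), and the leading genes of the other 7 groups were as above.

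**Figure D2:**
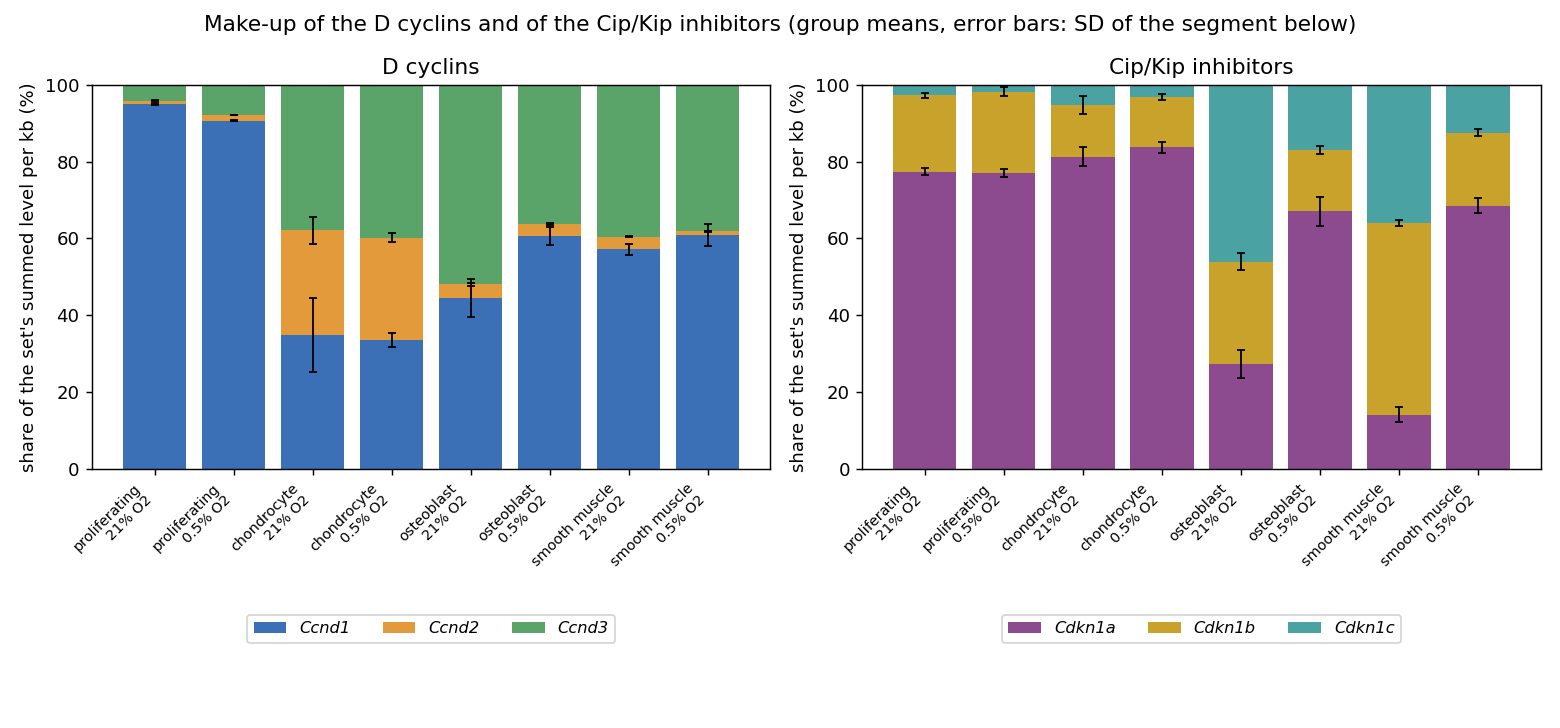
Share of each D cyclin (left) and each Cip/Kip inhibitor (right) in the summed level of its family, from counts per kilobase of exon within each library; bars are group means (4 libraries at 21% O2, 3 at 0.5% O2) and error bars the SD of the segment below them. Ccnd1 falls from 95.0% in proliferating cultures at 21% O2 to 34.8% in chondrocyte cultures, and Cdkn1a leads every group at 0.5% O2.

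The ratio of the summed Cip/Kip level to the summed D cyclin level, both per kilobase, was below 1 in both proliferating groups and above 1 in every library of the other 6. It was 0.196, 0.195, 0.197 and 0.269 in the proliferating libraries at 21% O2 and 0.660, 0.654 and 0.684 at 0.5% O2. Chondrocyte libraries had ratios of 1.94, 2.10, 1.90 and 1.70 at 21% O2 and 2.68, 2.63 and 2.99 at 0.5% O2. For osteoblast libraries they were 1.67, 1.64, 1.65 and 2.23 and 2.57, 3.22 and 3.62. Smooth muscle libraries had 1.16, 1.34, 1.31 and 1.13 and 1.97, 1.59 and 1.67. In each culture type the hypoxic libraries were all above the normoxic ones, by 3.11-fold in proliferating, 1.45-fold in chondrocyte, 1.75-fold in osteoblast and 1.41-fold in smooth muscle cultures. These folds compare group means of the ratio and carry no test, because the ratio is a score over genes chosen with earlier results known. They describe transcripts, not the proteins that meet in a complex. Without division by length the group means were 0.162 and 0.488 in proliferating cultures and between 0.669 and 1.71 in the other 6 groups, so the position relative to 1 depends on the lengths, while the hypoxic mean stayed the higher one in all 4 culture types.

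**Figure D3:**
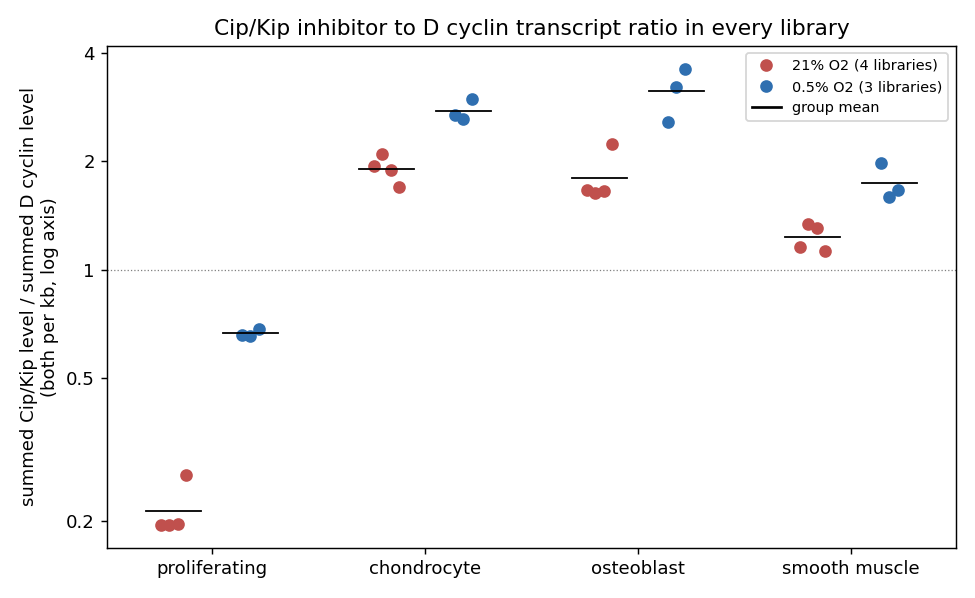
Ratio of summed Cip/Kip to summed D cyclin level in each library, both per kilobase of exon, on a log axis; red points are libraries at 21% O2 (4 per group), blue points libraries at 0.5% O2 (3 per group), black lines group means and the dotted line a ratio of 1. Proliferating libraries at 21% O2 sit between 0.195 and 0.269 and hypoxic osteoblast libraries between 2.57 and 3.62.

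Counts of the 8 tested genes are set here against the share of all tested genes called at an adjusted p under 0.05, which was most of them in 9 of the 10 pairwise comparisons. Against proliferating cultures at 21% O2, 7 of 8 were called in chondrocyte cultures, 5 higher and 2 lower (74.9% of all genes, 37.7% higher and 37.2% lower). In osteoblast cultures 7 were called, 3 higher and 4 lower (78.7% of all genes, 40.9% higher and 37.8% lower), and in smooth muscle cultures 8, 4 each way (79.7% of all genes, 40.8% higher and 38.9% lower). At 0.5% O2 all 8 were called in each medium, 4 each way in chondrocyte (69.5% of all genes, 34.9% higher and 34.6% lower; 3 higher and 4 lower by library size alone) and in osteoblast cultures (71.3% of all genes, 36.2% higher and 35.1% lower). In smooth muscle medium at 0.5% O2, 6 were higher and 2 lower with TMM (70.0% of all genes, 33.8% higher and 36.2% lower), and 1 was higher and 5 lower by library size alone. Between oxygen levels, 7 were called in proliferating cultures, 6 higher and 1 lower (65.4% of all genes, 33.1% higher and 32.3% lower). In chondrocyte cultures 3 were called, 2 higher and 1 lower (22.2% of all genes, 10.4% higher and 11.8% lower), and in osteoblast cultures 7, 5 higher and 2 lower (54.3% of all genes, 27% higher and 27.3% lower), or 3 higher and 2 lower by library size alone. Smooth muscle cultures had 5 called, 4 higher and 1 lower, with TMM (75.6% of all genes, 35.4% higher and 40.2% lower), and all 8, 2 higher and 6 lower, by library size alone. With 8 genes, chosen with earlier results of these data known, these counts are no result about the family as such. This holds also where they lie away from the background, as for the 6 of 8 higher at 0.5% O2 in proliferating cultures. The comparisons share groups, so their counts are not independent.

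**Figure D4:**
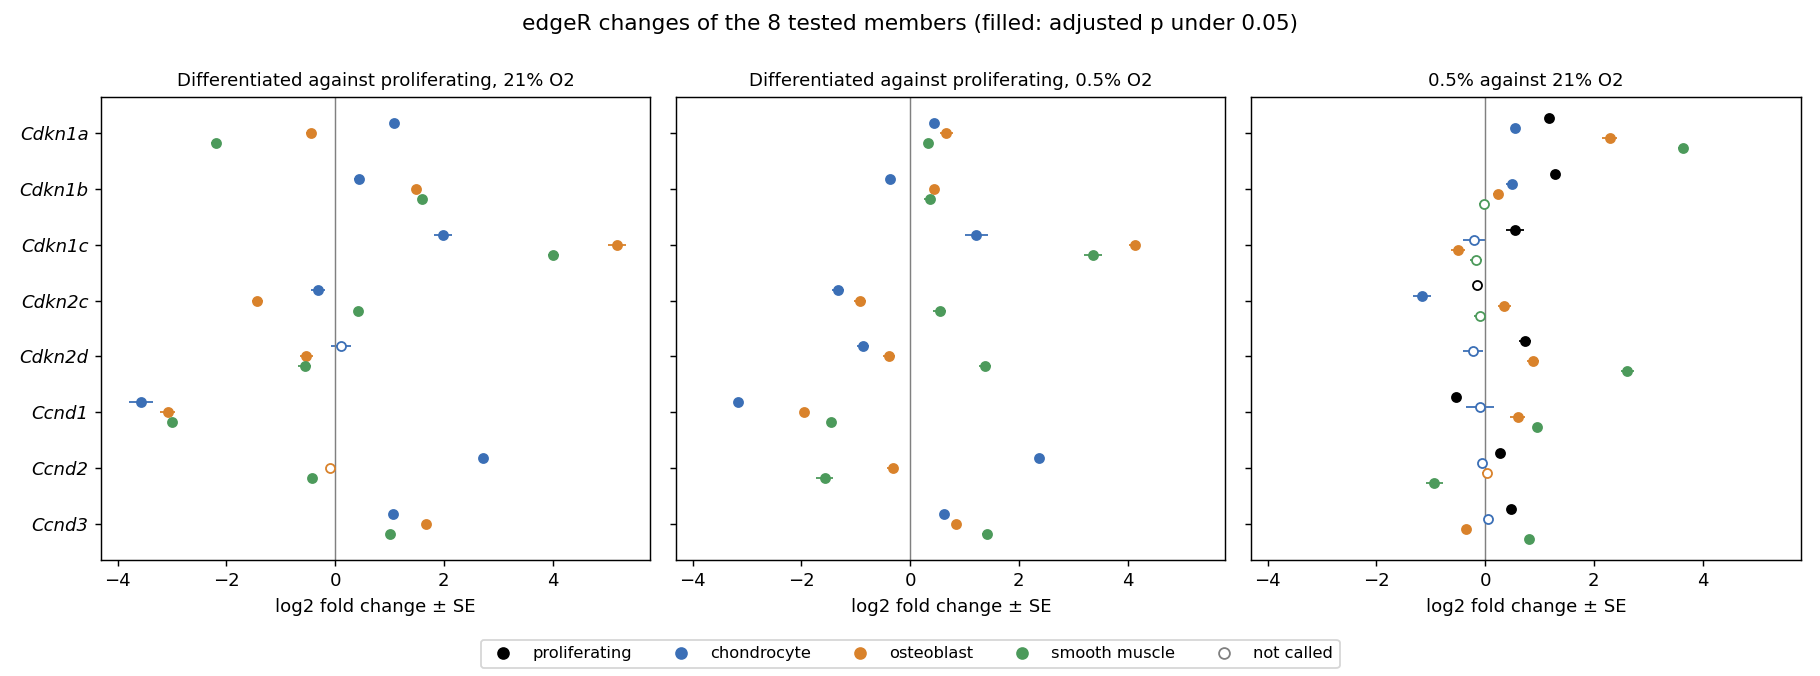
Log2 fold change ± SE of the 8 tested genes from edgeR, for cultures in differentiation medium against proliferating cultures at 21% O2 (left) and 0.5% O2 (middle) and for 0.5% against 21% O2 (right); colours are culture types and open points did not pass an adjusted p of 0.05. Cdkn1c lies right and Ccnd1 left of 0 in all 3 media, the hypoxic smooth muscle points standing for a medium and an oxygen level only; by library size alone the hypoxic smooth muscle points of Cdkn1a, Cdkn1b and Cdkn2c in the middle panel and of Ccnd1 and Ccnd3 in the right panel change sign.

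Whether the differentiation change itself depended on oxygen was tested by the interaction, the log2 change from proliferating cultures at 0.5% O2 minus that at 21% O2. For the chondrocyte change 7 of 8 were called, all of them lower at 0.5% O2 (43.5% of all genes, 21.6% higher and 21.9% lower). Largest was Cdkn2c (-0.99 ± 0.187, edgeR adjusted p = 0.000331), followed by Cdkn2d (-0.95) and Cdkn1b (-0.79), and Ccnd1 was not called (0.45 ± 0.267, adjusted p = 0.201). Without normoxic chondrocyte library 1 the Ccnd1 term was 0.64 with an adjusted p of 0.024. Cdkn1c (-0.73, adjusted p = 0.0328) lost its call when any one of normoxic proliferating libraries 2 and 3, normoxic chondrocyte library 1, hypoxic proliferating library 2 or hypoxic chondrocyte libraries 2 and 3 was left out (-0.71 to -0.54, adjusted p 0.0581 to 0.0925). Ccnd2 (-0.32, adjusted p = 0.0178) lost its call without hypoxic proliferating library 1 or hypoxic chondrocyte library 2 (adjusted p up to 0.0551) and in 1 fit of all 28 libraries (-0.27, adjusted p = 0.0841). The chondrocyte and proliferating cultures at 0.5% O2 enter each of these terms, and the raised hypoxic proliferating levels of Cdkn1a, Cdkn1b and Cdkn2d described above are part of them.

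For the osteoblast change 6 of 8 were called (3 higher, 3 lower, against 54.2% of all genes, 28.9% higher and 25.3% lower). Ccnd1 (1.17 ± 0.161), Cdkn1a (1.15 ± 0.168) and Cdkn2c (0.55 ± 0.14) were higher, and Cdkn1b (-1.01 ± 0.102), Cdkn1c (-1.004 ± 0.191) and Ccnd3 (-0.79 ± 0.0886) lower, with edgeR adjusted p between 7.78e-07 and 0.00351. Ccnd2 was called by library size alone (-0.31 with an adjusted p of 0.0397, against -0.19 ± 0.116 with TMM). The osteoblast pattern of less Ccnd1 and more Cdkn1b, Cdkn1c and Ccnd3 than in proliferating cultures was therefore smaller at 0.5% O2 on this scale for each of these 4 genes. The proliferating cultures also moved between oxygen levels, by -0.53 for Ccnd1, 1.285 for Cdkn1b, 0.55 for Cdkn1c and 0.475 for Ccnd3. These shifts are part of the terms. Within osteoblast cultures Cdkn1b did not fall at 0.5% O2 (0.24), Ccnd1 rose (0.60), and Cdkn1c (-0.50) and Ccnd3 (-0.36) fell. For the smooth muscle change 7 of 8 were called with TMM (4 higher, 3 lower, against 70.4% of all genes, 34.9% higher and 35.5% lower), and by library size alone 2 were higher and 5 lower. Cdkn1a (2.50 ± 0.123), Cdkn2d (1.92 ± 0.166) and Ccnd1 (1.52 ± 0.0992) were higher, and Cdkn1b (-1.26 ± 0.107), Ccnd2 (-1.17 ± 0.157) and Cdkn1c (-0.67 ± 0.174) lower, the Ccnd1 term by library size alone being 0.19 (edgeR adjusted p = 0.0679). Ccnd3 was 0.38 ± 0.106 with TMM (edgeR adjusted p = 0.00313) and -0.96 by library size alone, and the other term that changed sign, Cdkn2c, was not called with TMM (0.11 ± 0.132, adjusted p = 0.487).

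**Figure D5:**
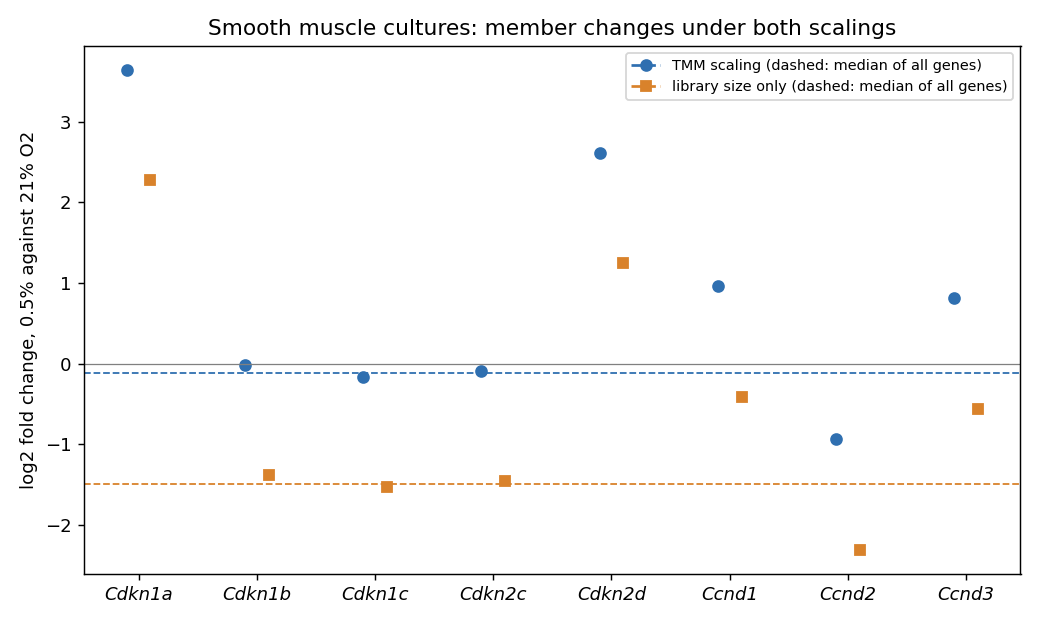
Log2 change at 0.5% against 21% O2 in smooth muscle cultures for the 8 tested genes with TMM scaling (circles) and with library size alone (squares); dashed lines are the median of all tested genes under each scaling. Both sets of points keep nearly the same distances from their own median, -0.123 with TMM and -1.49 with library size alone, and Ccnd1 and Ccnd3 change sign between the scalings.

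The other genes of the pathway were taken from fixed lists. In the normoxic differentiated cultures 4 of the 5 kinases (Cdk1, Cdk2, Cdk4, Cdk6 and Cdk7) fell and none rose in each lineage, with medians of -1.06 in chondrocyte, -1.68 in osteoblast and -1.32 in smooth muscle cultures, against medians of -0.00294, 0.0656 and 0.0276 over all genes and 37.2%, 37.8% and 38.9% of all genes called lower. Cdk6, a partner of the D cyclins, fell most among them in all 3 (-2.18 ± 0.102, -3.67 ± 0.141 and -2.58 ± 0.0983). All 6 E, A, B and F cyclins and all 10 proliferation markers fell in each normoxic lineage, with marker medians of -1.82, -4.91 and -2.44. Of 10 E2F and DP factors 10, 8 and 9 fell, and 0, 1 and 0 rose. The 10 proliferation markers also fell in all 3 media at 0.5% O2, with medians of -1.95, -2.33 and -1.22 (median of all genes -0.021, 0.000997 and -0.0725, called lower 34.6%, 35.1% and 36.2%). At 0.5% O2, of the 5 kinases 1 rose and 4 fell in chondrocyte, 0 rose and 4 fell in osteoblast and 1 rose and 3 fell in smooth muscle cultures. Of the 6 other cyclins 2 rose and 4 fell, 0 rose and 4 fell, and 1 rose and 4 fell in the same order, and of the 10 E2F and DP factors 2 rose and 8 fell, 3 rose and 6 fell, and 1 rose and 7 fell. By library size alone none of the kinases or other cyclins rose in these 3 comparisons. The normoxic medians of these lists had the same sign under library size scaling.

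Low oxygen went with different list counts in different cultures. In proliferating cultures all 5 kinases, all 6 other cyclins and all 6 genes of the complex that marks p27 for degradation fell, with medians of -0.503, -0.805 and -0.482 (all genes 0.0149, 32.3% called lower). Skp2, the subunit that recognises p27, fell most of the last list (-1.05 ± 0.061), beside the rise of Cdkn1b. In chondrocyte and in osteoblast cultures, where Cdkn1b was also called higher, 1 of these 6 genes rose in each and none fell with TMM, with medians of 0.00679 and -0.0313. By library size alone 0 rose and 1 fell in chondrocyte cultures. In osteoblast cultures 1 rose and 2 fell by library size alone, and the Cdkn1b call was lost. In chondrocyte cultures 4 of 6 other cyclins and 7 of 10 proliferation markers fell and none rose (all genes 11.8% called lower). In osteoblast cultures 6 of 10 proliferation markers, 5 of 6 other cyclins and 3 of 5 kinases rose and none fell (all genes 27% called higher), with a marker median of 2.11 against -0.0321 over all genes. By library size alone 6 markers rose and 1 fell, and 4 of 6 other cyclins and 2 of 5 kinases rose. Cdkn1a and these markers thus both rose in osteoblast cultures. In smooth muscle cultures 7 of 10 markers and 4 of 5 kinases rose and 0 and 1 fell with TMM (all genes 35.4% called higher), whereas by library size alone 9 of 10 and 4 of 5 fell, with medians of -0.857 and -0.46 against -1.49 over all genes.

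Genes that p53 controls were counted beside Cdkn1a. Of 13 tested p53 targets, 7 rose and 4 fell at 0.5% O2 in proliferating cultures (all genes 33.1% higher and 32.3% lower), 1 rose and 1 fell in chondrocyte cultures (all genes 10.4% and 11.8%), and 7 rose and 3 fell in osteoblast cultures (all genes 27% and 27.3%). The medians were 0.182, 0.094 and 0.723, against 0.0149, -0.00585 and -0.0321 over all genes. In osteoblast cultures the largest rise was that of Eda2r (3.56 ± 0.269), a death receptor, and the largest fall that of Plk2 (-1.23 ± 0.082), a kinase. In smooth muscle cultures 8 rose and 4 fell with TMM (median 1.06, all genes -0.123, 35.4% of all genes higher and 40.2% lower), and 6 rose and 5 fell by library size alone (median -0.316, all genes -1.49). Bax, which promotes apoptosis, rose most (3.22 ± 0.0844) and Sesn1, a stress response gene, fell most (-3.02 ± 0.122). The list did not move as one. Of the 3 genes for p53 and its regulators (Trp53, Mdm2 and Mdm4), 1 rose and 1 fell at 0.5% O2 in proliferating cultures, 0 were called in chondrocyte and 2 rose in osteoblast cultures. In smooth muscle cultures 2 rose and 1 fell with TMM, and 0 rose and 2 fell by library size alone. Trp53 had means of 222 CPM at 21% and 123 CPM at 0.5% O2 in proliferating cultures. The activity of p53 was not measured.

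Genes whose levels ran most like each member over the 28 libraries were found by Pearson correlation of log2 CPM among 13389 genes. The closest were Fam129b (r = 0.957) and Polk (0.951) for Cdkn1a, Stoml1 (0.947) and Vwa5a (0.946) for Cdkn1b, and Casp12 (0.963) and Dstn (0.96) for Cdkn1c. For Cdkn2c they were Micall2 and Eif2ak4 (both 0.879), and for Cdkn2d Hpcal1 (0.946) and Gpx8 (0.945). Among the cyclins they were Otud4 (0.957) and Sipa1l3 (0.956) for Ccnd1, Nectin3 (0.967) and Fam149a (0.966) for Ccnd2, and Inafm1 (0.957) and Iah1 (0.954) for Ccnd3. The 28 libraries form 8 groups and share their scaling, so these values describe likeness between groups and carry no test.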

How the data were processed

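Per the labels' protocols, polyA RNA from 28 O9-1 libraries was prepared with a stranded kit. The authors deposited a table of raw read counts per gene, which per the submitters' processing notes rests on HISAT2 2.0.5, StringTie 1.3.3b and featureCounts 1.5.0-p3 with build mm10 (GRCm38). The annotation release and the strand setting of the counting are not given in the sources used here, so counts of genes that overlap another on the opposite strand are uncertain. The authors' 10 deposited comparison tables, which hold log2 fold changes and p-values, are quoted for Cdkn2a only, and 70 further per-sample columns in them were not used.

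Of 54429 gene identifiers 54314 had a symbol, and all 10 members were found by symbol. Each comparison was fitted on its own groups with edgeR 4.0.16 (R 4.3.3): filterByExpr with a minimum count of 10, TMM scaling and the robust quasi-likelihood test, with Benjamini-Hochberg adjustment over all genes tested at a threshold of 0.05. The SE of a log2 fold change is its size divided by the square root of F. Levels are CPM with TMM factors over all 28 libraries, and ± beside a level, share or ratio is the SD. Lengths are union exons of GENCODE M21 on GRCm38. Replicates were grouped by their titles, and their numbers did not pair libraries. The script was tested on simulated data. The alternatives were library size alone, RLE factors, other filters, DESeq2 1.42.0, limma-voom (limma 3.58.1), 1 fit of all 28 libraries, a replicate block and leaving out each library. Totals of 19.87 to 64.69 M counts (M is 1000000) limit the precision of genes with few counts, such as Cdkn2a. Genes named beyond the members were the 2 genes most like each member and, from the pathway lists, the largest called change each way. The kinases and p53 with its regulators were named in full. Genes that overlap or neighbour a member and single cell type markers were named as well, Gm12610 and Dmrta1 after their values were seen. The members and all lists were chosen with earlier results of these data known, and a list's count is therefore no independent evidence of its direction.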

Additional observations from a re-analysis of the deposited data

Results flagged for a closer look

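In 5 of 32 cases (8 genes in 4 groups of 4 libraries), 1 library lay far from the other 3, its gap to the nearest, as a share of the group's range, exceeding the 95% critical value of Dixon's criterion, which flags about 1 in 20 groups by chance. In proliferating cultures at 21% O2 library 4 had the highest Cdkn1a level (180.3 CPM) and the lowest Ccnd1 level (1073 CPM). In osteoblast cultures at 21% O2 library 4 had the highest Cdkn1c level (137.7 CPM) and the lowest Ccnd1 level (97.43 CPM). The same library also stood apart in cartilage and bone markers, with 775.4 CPM of Col2a1 against 35.59 to 43.63 CPM in the other 3. In smooth muscle cultures at 21% O2 library 4 had the highest Cdkn1a level (38.55 CPM). All 5 flags fall on libraries numbered 4, and the labels give no batch for that number.

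The change from proliferating to differentiated cultures differed between oxygen levels (interaction term, log2, 0.5% minus 21% O2, edgeR adjusted p under 0.05) in 20 cases. For chondrocyte cultures the terms were Cdkn1a -0.6127, Cdkn1b -0.7864, Cdkn1c -0.7319, Cdkn2c -0.9866, Cdkn2d -0.9479, Ccnd2 -0.3179 and Ccnd3 -0.4041. For osteoblast cultures they were Cdkn1a 1.153, Cdkn1b -1.007, Cdkn1c -1.004, Cdkn2c 0.5496, Ccnd1 1.169 and Ccnd3 -0.7885. For smooth muscle cultures they were Cdkn1a 2.504, Cdkn1b -1.265, Cdkn1c -0.6679, Cdkn2d 1.917, Ccnd1 1.525, Ccnd2 -1.172 and Ccnd3 0.3788, the last of which is negative by library size alone. The smooth muscle terms rest on the 3 hypoxic libraries whose smooth muscle markers were below those of hypoxic proliferating cultures.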

How the results depend on the processing

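Of 104 log2 changes of the 8 tested genes in 13 comparisons and interactions, 81 kept direction and side of the threshold by library size alone, and between 100 and 104 did so under each of the other alternatives fitted to all libraries. Directions turned by library size alone for Cdkn2d in chondrocyte cultures at 21% O2 (-0.2406), for Cdkn1a (-0.9418), Cdkn1b (-0.918) and Cdkn2c (-0.7287) in smooth muscle against proliferating cultures at 0.5% O2, for Ccnd3 (-0.01491), Ccnd2 (-0.1162), Ccnd1 (-0.4142) and Ccnd3 (-0.5584) between oxygen levels in chondrocyte, osteoblast and, for the last pair, smooth muscle cultures, and for the smooth muscle interaction of Cdkn2c (-1.23) and Ccnd3 (-0.9595). These shifts follow the median of all genes, and relative to that median no direction differed between both scalings. That scaling called 8 members instead of 5 between oxygen levels in smooth muscle cultures. It lowered the share of calls that were higher from 50.3% to 34.7% (chondrocyte) at 21% O2, from 50.2% to 31.8% (chondrocyte), 50.8% to 38.2% (osteoblast) and 48.3% to 15% (smooth muscle) at 0.5% O2, from 46.9% to 31.8%, 49.6% to 36.9% and 46.8% to 15.6% between oxygen levels in the same order, and from 49.6% to 16.6% for the smooth muscle interaction. Cdkn1b between oxygen levels in smooth muscle cultures, not called, was 0.02129 with RLE factors and 0.02156 with DESeq2.

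The replicate block, fitted although same-numbered libraries did not deviate together (residual correlations -0.0566 to 0.0814 over 10 comparisons), turned Ccnd1 between oxygen levels in chondrocyte cultures, not called either way, to 0.05759, gave Cdkn2c a call between oxygen levels in proliferating cultures, and moved the number of genes called most between oxygen levels in osteoblast cultures (7890 to 9183). Between oxygen levels and for the interactions that fit leaves out the normoxic libraries numbered 4, which have no hypoxic counterpart. Leaving out 1 library turned 5 of 896 values, none of them a called change: Cdkn2d in chondrocyte cultures at 21% O2 (-0.02597 to 0.2803), Ccnd1 (-0.2253 to 0.1032) and Ccnd3 (-0.003362 to 0.1165) between oxygen levels in chondrocyte cultures, Cdkn1b between them in smooth muscle cultures (-0.1309 to 0.02652) and the smooth muscle interaction of Cdkn2c (-0.01715 to 0.1843). The genes called between oxygen levels in chondrocyte cultures numbered 3157, and 2091 to 3359 with 1 library left out, the lowest without hypoxic chondrocyte library 3. The cause of these changes was not tested. Cdkn2a and Cdkn2b had too few counts to be tested.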
